A study of Mus musculus with 36 samples.

Results

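The mouse genome carries 39 protein-coding Hox genes in 4 clusters, and their RNA was followed in mouse embryonic fibroblasts (MEF) in which a satellite repeat of the heterochromatin was targeted with a catalytically dead Cas9 (dCas9). The members were the gene rows that GENCODE M21 annotates as protein-coding and names Hoxa, Hoxb, Hoxc or Hoxd with a number, which gave 39 of the 54842 gene rows. On GRCm38 the Hoxa cluster holds 11 of them (chromosome 6, minus strand), Hoxb 10 (chromosome 11, 96194316 to 96368256, plus strand), Hoxc 9 (chromosome 15, 102921103 to 103036852, plus strand) and Hoxd 9 (chromosome 2, 74668310 to 74765142, plus strand). The number in a gene's name is its paralog group, and a low number lies at the end of the cluster that is used in anterior body regions.

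Total RNA was sequenced from 36 libraries of 2 MEF lines, MSR-dCas9-Control and MSR-dCas9-Activator, with 3 replicates in each of 12 groups. Both lines carry a doxycycline (dox) inducible dCas9 together with a constantly expressed guide RNA against the major satellite repeat (MSR), integrated by transposon and kept as mixed, drug-selected cultures rather than clones. In the Activator line the dCas9 is fused to the activation domain VPR, and in the Control line it carries no effector. Each line was sampled uninduced, at the end of induction with 10 ng/ml dox (24 h in Control cells and 6 h in Activator cells), and once fresh medium without dox had been added, after which the times 3, 6, 12 and 24 h are counted. The length of dox treatment therefore differed between the lines at every time after the uninduced state.

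Hox proteins are homeodomain transcription factors that give cells along the head to tail axis and in the limbs their regional identity. Genes of a cluster are switched on in the order of their position, a property called colinearity, and a silent Hox gene is held down by Polycomb complexes while MLL and trithorax complexes keep an active gene on. Fibroblasts retain in culture the Hox pattern of the body site they came from, and Hox proteins bind DNA together with TALE homeodomain partners of the Pbx and Meis families.

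Between 27376846 and 57371803 reads per library were counted on genes (median 42865961). Levels are given as counts per 1000000 gene counts (CPM) scaled with TMM factors, and levels are compared between genes as CPM per kilobase of exon. The repeat addressed by the guide made up 0.00178 to 0.00396% of all counts in Control libraries, 0.0043 to 0.00804% in uninduced Activator libraries and 0.189 to 2.78% in Activator libraries from the end of induction on. In the Activator line, replicate 2 lay closest to the Control libraries at each of these later times: over genes with a mean count above 100 its median absolute log2 distance from Control was 0.309 at the end of induction, against 0.426 and 0.412 in replicates 1 and 3. The samples are cultures, so that fewer cells using a gene and less RNA per cell cannot be told apart.

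Before induction the cells used a set of Hox genes from all positions of the clusters. In uninduced Control cells Hoxd8 had the highest level per length, 5.44 CPM per kb, followed by Hoxb9 with 4.85 and Hoxb4 with 4.72, and the libraries of these 3 overlapped (n = 3 libraries each). Hoxa5 (2.79), Hoxd9 (2.77), Hoxa6 (2.62), Hoxb3 (2.61), Hoxb2 (2.43), Hoxc13 (2.05) and Hoxa10 (2.0) came next, all below Hoxb4 in every library, and no neighbours in this order were apart in all libraries. Hoxa2 (1.22), Hoxa3 (1.07), Hoxa4 (0.575) and Hoxd4 (0.566) were lower, and 24 members were at 0.275 CPM per kb or lower. Ranked by the length of the longest transcript in place of all exons, Hoxd8, Hoxb9 and Hoxb4 stayed at the top and Hoxb3 moved from rank 7 to rank 4.

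**Figure D1:**
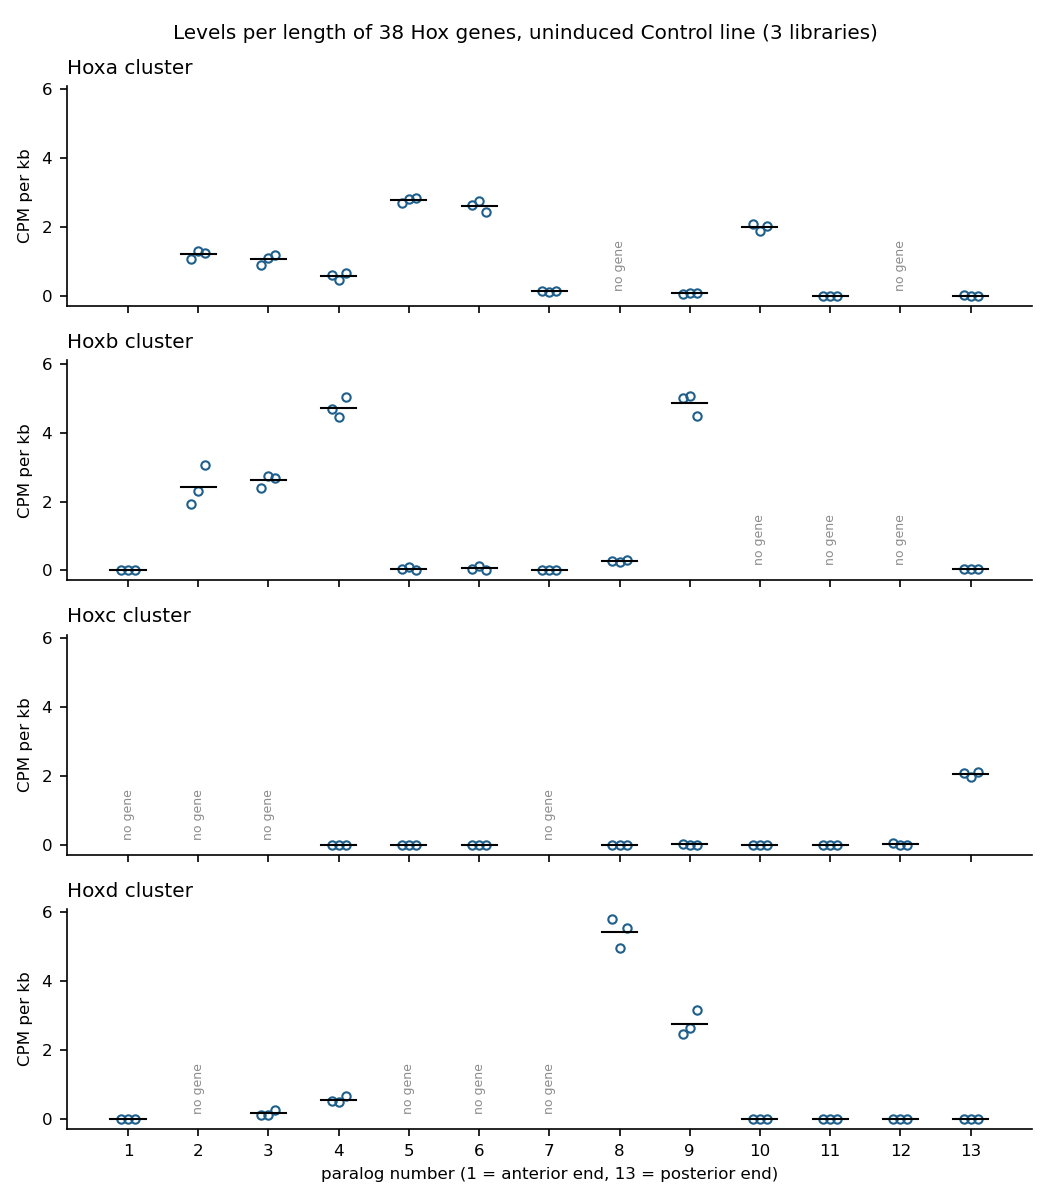
Level per length (CPM per kb of exon, vertical axis) of 38 of the 39 Hox genes against paralog number (horizontal axis) in the 3 libraries of uninduced Control cells, with a panel for each cluster. Open circles are libraries and bars their mean. Hoxd8, Hoxb9 and Hoxb4 stand highest, and in the Hoxc cluster Hoxc13 stands alone at 2.05 CPM per kb.

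The level did not follow the position in a simple way: across the 39 members Spearman's rho between paralog number and level per length was -0.29, a description across genes that share libraries and clusters. The Hoxb cluster gave 44.4% ± 1.14 of all Hox counts (SD, n = 3), Hoxa 27.8% ± 0.255, Hoxd 22.7% ± 1.2 and Hoxc 5.0% ± 0.279. After scaling to length the share of Hoxb was 39.3% and that of Hoxa 32.0%. In the Hoxc cluster nearly all counts came from Hoxc13, the gene at its posterior end, which acts in hair and nail formation. The other 8 Hoxc genes had 7 counts in the 3 libraries together, and Hoxd1 and Hoxd10 to Hoxd13 had 0.

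Of the 39 members, 28 had enough counts for a test. The 11 others were Hoxa11, Hoxa13, Hoxb1, Hoxb7, Hoxc10, Hoxc12, Hoxd1, Hoxd10, Hoxd11, Hoxd12 and Hoxd13, of which 8 are posterior genes (paralog groups 9 to 13). In Control cells their sums over 18 libraries were at most 10 counts (Hoxc12). In Activator cells Hoxc10 reached 102 counts, Hoxb7 65, Hoxc12 58 and Hoxb1 29, and the other 7 stayed at 10 or fewer. The 11 members with a mean normalised count above 100 included Hoxa3, Hoxa5, Hoxa10, Hoxb2, Hoxb3, Hoxb4, Hoxb9, Hoxc13, Hoxd8 and Hoxd9. A member was called changed with an adjusted p under 0.05 (edgeR quasi-likelihood test, Benjamini-Hochberg over 28536 genes), more than 2-fold change and a mean normalised count above 100, so that only these 11 could be called.

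After induction of the Activator the summed Hox level dropped and was higher again after 24 h. In Control cells the 39 genes together gave 95.04 to 122.2 CPM over all 18 libraries. In Activator cells the sum was 98.6 to 113.0 CPM before induction, 51.3 to 82.3 at its end, 42.0 to 56.5 after 3 h, 41.0 to 64.4 after 6 h, 45.5 to 71.2 after 12 h and 81.6 to 104.8 after 24 h. From the end of induction to 12 h every Activator library thus lay below every Control library, and after 24 h the Activator libraries were still below the 3 Control libraries of that time (108.1 to 122.2 CPM).

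**Figure D2:**
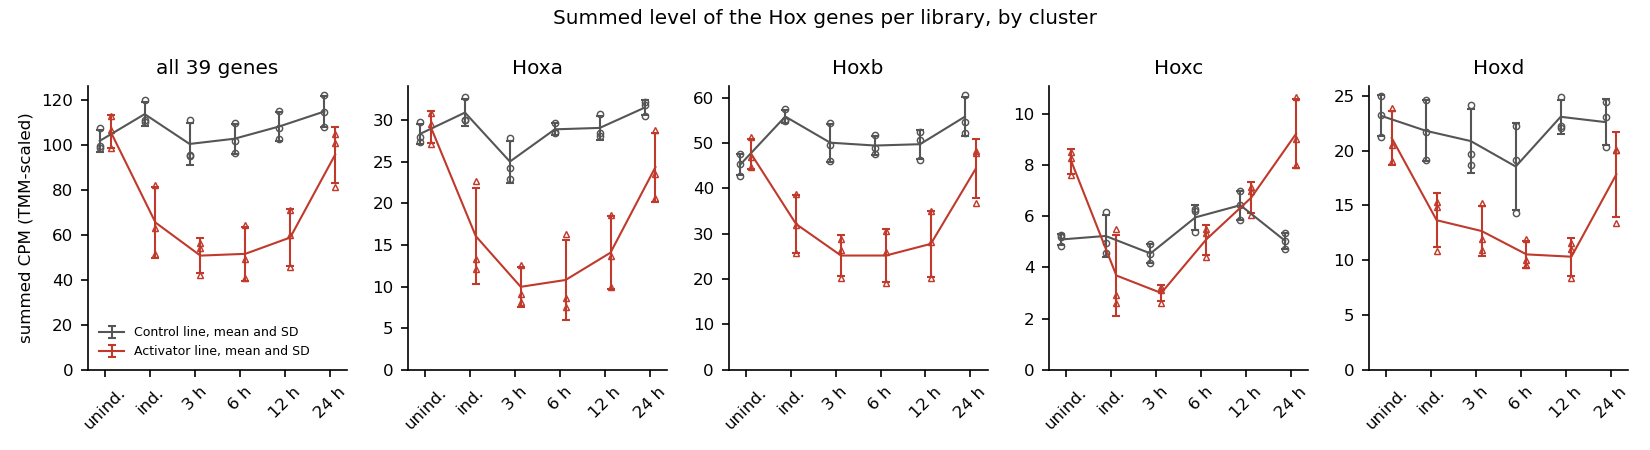
Summed level (CPM, TMM-scaled, vertical axes from 0) of all 39 Hox genes and of each cluster by time point (horizontal axis), in Control (grey circles) and Activator cells (red triangles). Symbols are libraries, lines join group means and bars are SD (n = 3). The Hoxa, Hoxb and Hoxd sums fall in Activator cells and are lowest at 3 to 12 h, while the Hoxc sum falls to 3.0 CPM after 3 h and rises to 9.22 CPM after 24 h.

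The clusters did not move in parallel. The Hoxa sum in Activator cells went from 29.2 ± 1.9 CPM (SD, n = 3) before induction to 9.97 ± 2.37 after 3 h, and the Hoxb sum from 47.6 ± 3.33 to 25.2 ± 4.44. The Hoxd sum was 21.2 ± 2.47 CPM before induction, 12.7 ± 2.25 after 3 h, 10.5 ± 1.25 after 6 h and 10.3 ± 1.73 after 12 h. Its means after 6 h and 12 h were within their SD of each other. The Hoxc sum fell from 8.14 ± 0.473 to 3.0 ± 0.33 CPM after 3 h and was 9.22 ± 1.35 after 24 h, when Control cells had 5.03 ± 0.327. As a share of Hox counts in Activator cells, Hoxa went from 27.5% to 19.7% after 3 h and Hoxc from 7.67% to 11.9% after 12 h, while Hoxb stayed between 44.9 and 49.5%. These sums and shares are descriptions and carry no test.

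Without dox the lines were close to each other in their Hox genes. None of the members was called different between uninduced Activator and Control cells with edgeR or with DESeq2, where edgeR called 0.214% of all tested genes. In edgeR 6 members had an unadjusted p under 0.05. The share of all genes at that limit is not given, so the 6 are no result about the members. At an adjusted p under 0.05 alone (edgeR), Hoxb6 was higher in Activator cells by 2.20 ± 0.57 on the log2 scale (SE, adjusted p = 0.048), from 14 counts in the 3 Control libraries, and 1.23% of all genes passed. The Hoxb6 difference no longer passed when any of the 3 Activator libraries or Control replicates 1 or 3 was left out. Hoxa7 (0.94) and Hoxc13 (0.64) were higher by estimates that did not pass. The median over the 28 members was 0.16, beside 0.03 over all genes. These 28 include Hoxc genes that entered the test only through the Activator libraries, and all 7 tested Hoxc genes had estimates above 0. Over the 11 members with a mean normalised count above 100 the median was -0.04.

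Following induction the expressed Hox genes fell in Activator cells relative to Control cells. At the end of induction 5 members were called, all lower (Hoxa3, Hoxa5, Hoxa10, Hoxb2 and Hoxb4), where 5.71% of all genes were called lower and 2.78% higher. At 3 h 9 members were called lower, after 6 h the number was 9, and after 12 h it was 8, beside 9.45, 10.3 and 10.9% of all genes. At 24 h no member was called by edgeR or DESeq2, where 4.12% of all genes were called lower and 3.34% higher. The unadjusted p of 16 members was under 0.05 at that time in edgeR, and the adjusted p of the same number, with 9 higher and 7 lower, beside 34.5 and 29.4% of all genes. Those higher include genes of Hoxc4 to Hoxc12, which entered the test only through the Activator libraries. Among the 22 tested members outside Hoxc4 to Hoxc12, 3 passed higher and 7 lower. Only genes with a mean above 100 can be called, and among those genes the share called lower was 12% at the end of induction, 19.8% after 3 h, 21.5% after 6 h and 22.8% after 12 h, to be set against 5, 9, 9 and 8 of 11 members.

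The median log2 difference of these 11 members was -0.04 before induction, -0.91 at its end, -1.42 after 3 h, -1.43 after 6 h, -1.20 after 12 h and -0.38 after 24 h. All 11 estimates were below 0 from the end of induction to 12 h. The count at the end of induction depended on single libraries: it was 9 without Activator replicate 2, 2 without Activator replicate 3, and 3 and 1 with replicates 1 and 3 left out of every group. The count after 12 h was 3 without Activator replicate 1, and 5 with DESeq2. The count stayed at 9 after 3 h and ranged from 7 to 9 after 6 h when libraries were left out. In a model with a common difference between the lines over the 6 times, 4 members were called, all lower (Hoxa3, Hoxa10, Hoxb4 and Hoxd9), where 5.56% of all genes were called lower.

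**Figure D3:**
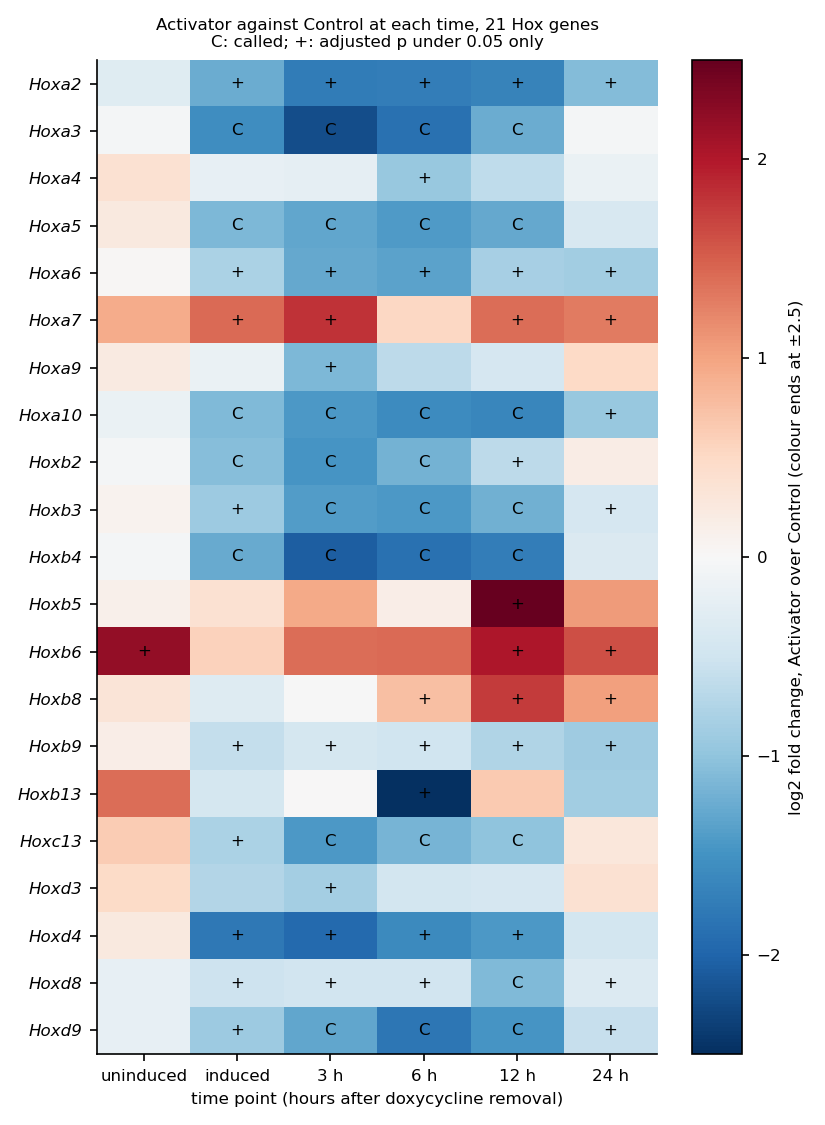
Log2 fold change of Activator over Control cells (colour, red higher and blue lower in Activator cells) for 21 of the tested Hox genes, without Hoxc4 to Hoxc12 (rows, ordered by cluster and position) at the 6 time points (columns). C marks a call and a plus sign an adjusted p under 0.05 alone (edgeR). Most rows are blue from the end of induction to 12 h and pale after 24 h, while Hoxa7, Hoxb5 and Hoxb6 are red at the 6 times, with and without a pass, and Hoxb8 is red before induction and from 6 h on.

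Among the anterior genes, which pattern the hindbrain and neck, Hoxa3 had the largest estimate. Hoxa3 takes part in forming the thymus, parathyroid and neck structures. In Control cells it gave 5.23 to 8.86 CPM over 18 libraries (median 6.97). In Activator replicates 1, 2 and 3 it gave 5.98, 6.18 and 6.48 CPM before induction, 1.79, 4.45 and 1.64 at its end, 0.908, 1.94 and 1.02 after 3 h, 1.08, 3.76 and 1.52 after 6 h, 2.01, 4.64 and 2.85 after 12 h, and 7.05, 8.24 and 7.29 after 24 h. From the end of induction to 12 h all of its Activator libraries were thus below the lowest Control library, replicate 2 the least so, and after 24 h the lines overlapped. At 3 h the difference was -2.21 ± 0.27 on the log2 scale (edgeR adjusted p = 4.6e-08) and after 24 h it was -0.05 ± 0.24 (edgeR adjusted p = 0.86). The Hoxa3 exons share 25.42% of their bases with antisense transcripts, and whether the counting used the strand was not given in the sources used here.

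Hoxb4 is known for its role in blood stem cells and was among the 3 most strongly expressed members. Its Control libraries gave 10.0 to 13.2 CPM (median 11.8). Hoxb4 in Activator replicates 1, 2 and 3 gave 11.6, 10.6 and 12.7 CPM before induction, 4.08, 7.96 and 3.74 at its end, 2.43, 3.9 and 1.86 after 3 h, 1.42, 6.21 and 2.31 after 6 h, 1.98, 6.45 and 3.23 after 12 h and 6.52, 11.4 and 9.58 after 24 h. Replicate 2 again kept the most RNA from the end of induction to 24 h, and after 24 h it lay within the Control range while the other two did not reach 10.0 CPM. The difference of Hoxb4 was -2.06 ± 0.34 after 3 h (edgeR adjusted p = 8.8e-06), -1.73 ± 0.34 after 12 h (edgeR adjusted p = 5.6e-05) and -0.37 ± 0.32 after 24 h (edgeR adjusted p = 0.32).

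**Figure D4:**
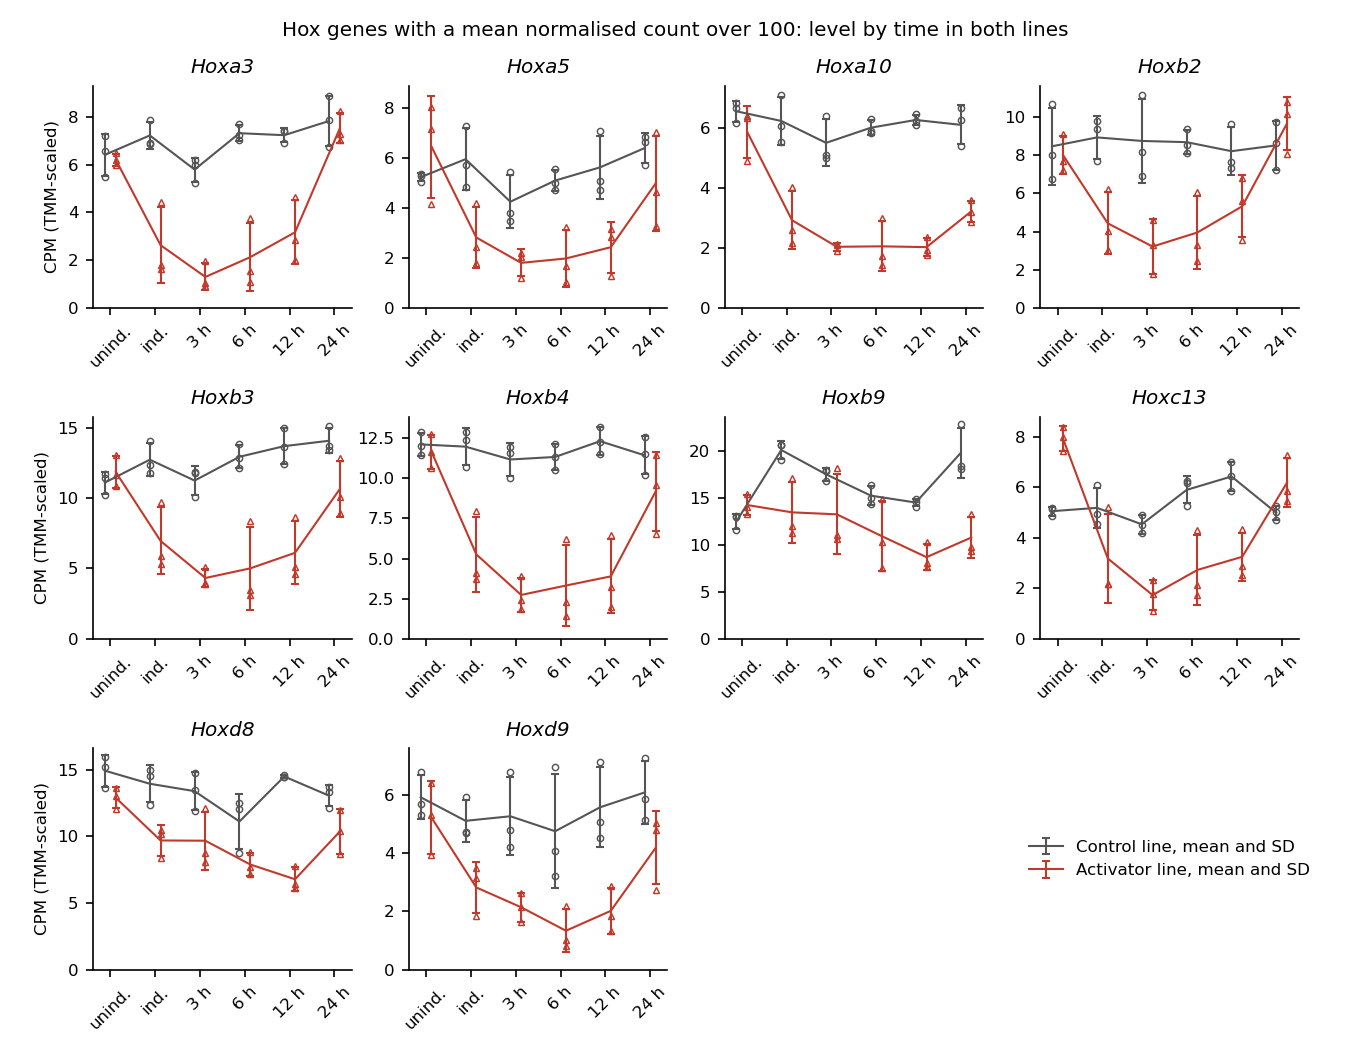
Level (CPM, TMM-scaled, vertical axes from 0) of 10 of the 11 Hox genes with a mean normalised count over 100 by time point (horizontal axis), in Control (grey circles) and Activator cells (red triangles). Symbols are libraries, lines join group means and bars are SD (n = 3). After induction the red lines drop below the grey in all 10 panels. At 24 h Hoxa3, Hoxb2 and Hoxc13 are close to or above the grey line and Hoxa10 and Hoxb9 stay furthest below it.

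The bases before the start sites of 4 members are shown because these genes went different ways: Hoxa5 and Hoxb4 were called lower at 4 times, Hoxd8, the highest member per length, after 12 h alone, and Hoxb8 was higher after 12 h. They are the 250 bases before the start on the strand of the gene, from RefSeq on GRCm38.p6, which held 24 windows for 22 of the 39 members (Hoxa10 and Hoxd11 have a pair each), and capitals mark the CCAAT box, the GC box (letters GGGCGG) or the TATA box (letters TATAAA), searched on both strands. The windows are chr6:52204588-52204837 on the minus strand for Hoxa5 and, on the plus strand, chr11:96318017-96318266 for Hoxb4, chr2:74704365-74704614 for Hoxd8 and chr11:96281655-96281904 for Hoxb8, and none overlaps an annotated exon.
Hoxa5: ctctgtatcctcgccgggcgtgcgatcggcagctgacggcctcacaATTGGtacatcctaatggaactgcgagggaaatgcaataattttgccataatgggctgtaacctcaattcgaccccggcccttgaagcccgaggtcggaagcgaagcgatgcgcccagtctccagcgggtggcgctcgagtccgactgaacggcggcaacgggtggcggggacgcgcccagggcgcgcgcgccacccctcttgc
Hoxb4: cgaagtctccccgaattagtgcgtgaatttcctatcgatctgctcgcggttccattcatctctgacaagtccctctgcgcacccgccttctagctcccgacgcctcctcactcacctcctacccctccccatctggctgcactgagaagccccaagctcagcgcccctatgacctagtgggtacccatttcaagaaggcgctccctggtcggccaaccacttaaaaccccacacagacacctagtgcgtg
Hoxd8: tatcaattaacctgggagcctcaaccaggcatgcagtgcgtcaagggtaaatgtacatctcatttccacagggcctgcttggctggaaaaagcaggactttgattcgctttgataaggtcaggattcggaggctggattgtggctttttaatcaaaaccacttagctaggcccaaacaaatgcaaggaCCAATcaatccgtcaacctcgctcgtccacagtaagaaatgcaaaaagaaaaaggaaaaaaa
Hoxb8: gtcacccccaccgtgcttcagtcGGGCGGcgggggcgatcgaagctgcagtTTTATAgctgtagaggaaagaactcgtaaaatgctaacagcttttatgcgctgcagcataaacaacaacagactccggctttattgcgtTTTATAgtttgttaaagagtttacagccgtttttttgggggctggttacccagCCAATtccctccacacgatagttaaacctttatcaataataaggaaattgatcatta
The Hoxb8 window held 2 TATA boxes, a GC box and a CCAAT box, the Hoxa5 and Hoxd8 windows a CCAAT box each, and the Hoxb4 window had no match. CCAAT was found in 14 of 24 Hox windows (58.3%) and in 33.8% of 32851 promoter windows of the same length, GGGCGG in 41.7 and 32.7%, and TATAAA in 16.7 and 12.4%. The median number of CG dinucleotides was 12.5 in the Hox windows and 6 in all windows. The Hoxa5 window had 28, Hoxb4 14, Hoxb8 12 and Hoxd8 6.

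Hoxb2 and Hoxb3 lie side by side at the anterior end of the Hoxb cluster. Hoxb2 gave 6.75 to 11.2 CPM in Control libraries, and in Activator replicates 1, 2 and 3 it gave 7.69, 7.25 and 9.12 before induction, 3.05, 6.23 and 4.01 at its end, 1.76, 4.6 and 3.27 after 3 h, 2.46, 6.1 and 3.3 after 6 h, 3.58, 6.8 and 5.6 after 12 h and 8.09, 10.2 and 10.8 after 24 h. Hoxb3 gave 10.1 to 15.1 CPM in Control libraries, and in the same Activator replicates 10.8, 13.1 and 11.6 before induction, 5.87, 9.69 and 5.3 at its end, 3.91, 5.08 and 3.96 after 3 h, 3.5, 8.37 and 3.13 after 6 h, 4.57, 8.66 and 5.08 after 12 h and 8.94, 12.9 and 10.1 after 24 h. Hoxb2 was back in the Control range after 24 h (0.18 ± 0.23) and Hoxb3 was still below its Control libraries of that time (-0.42 ± 0.17, edgeR adjusted p = 0.034). At 3 h the differences were -1.48 ± 0.24 for Hoxb2 and -1.39 ± 0.18 for Hoxb3 (edgeR adjusted p = 4.3e-06 and 1e-07). Antisense transcription covers 27.32% of the Hoxb2 and 52.93% of the Hoxb3 exon bases, by the transcript Hoxb3os. Hoxb3os itself was at -1.39 after 3 h and -0.95 after 12 h (edgeR adjusted p = 5.3e-07 and 8.5e-05). The strand setting of the counting is not known, so the fall of Hoxb3 cannot be fully separated from that of Hoxb3os.

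Of the central genes, Hoxa5 and Hoxd8 were the highest members of their clusters per length. Hoxa5, which acts in lung and skeletal development, gave 3.49 to 7.31 CPM in Control libraries. Activator replicates 1, 2 and 3 had 4.16, 7.18 and 8.06 CPM of Hoxa5 before induction, 1.81, 4.19 and 2.45 at its end, 1.18, 2.19 and 2.02 after 3 h, 1.04, 3.22 and 1.66 after 6 h, 1.26, 3.17 and 2.85 after 12 h and 3.27, 7.04 and 4.64 after 24 h. The spread between its replicates was wide before induction and after 24 h, and the lines were apart from the end of induction to 12 h. Hoxa5 was called at the 4 times from the end of induction to 12 h, with the largest difference after 6 h (-1.42 ± 0.27, edgeR adjusted p = 3.3e-05).

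Hoxd8 was called after 12 h alone. Its Control libraries gave 8.78 to 15.9 CPM, with the lowest value after 6 h, and Activator replicates 1, 2 and 3 gave 13.1, 12.0 and 13.6 before induction, 8.4, 10.2 and 10.5 at its end, 8.76, 8.1 and 12.2 after 3 h, 8.82, 7.19 and 7.66 after 6 h, 6.16, 6.39 and 7.79 after 12 h and 8.68, 10.4 and 12.0 after 24 h. The Hoxd8 libraries of the lines overlapped after 3 h and 6 h and were well apart after 12 h. There the difference was -1.10 ± 0.13 (edgeR adjusted p = 1.2e-08), after -0.48 ± 0.13 at both 3 h and 6 h (edgeR adjusted p = 0.0014 each). The 12 h estimate fell short of the 2-fold limit without replicate 2 in any group (-0.97), without Activator replicate 1 (-0.97) and with DESeq2 (-0.90), each with an adjusted p under 0.05.

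Of the posterior genes, which act in the limbs and the lower trunk, Hoxa10 and Hoxd9 were called lower. Hoxa10, known for its part in the uterus and lower spine, gave 4.99 to 7.09 CPM in Control libraries. Hoxa10 in Activator replicates 1, 2 and 3 gave 6.31, 6.39 and 4.87 CPM before induction, 2.58, 4.01 and 2.15 at its end, 1.87, 2.09 and 2.12 after 3 h, 1.42, 2.99 and 1.72 after 6 h, 1.76, 2.36 and 1.92 after 12 h and 2.86, 3.58 and 3.19 after 24 h. It stayed below every Control library from the end of induction to 24 h. The difference of Hoxa10 was -1.63 ± 0.20 after 12 h (edgeR adjusted p = 3.5e-08) and still -0.94 ± 0.19 after 24 h (edgeR adjusted p = 0.00014).

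Hoxd9 had its lowest level after 6 h. It gave 3.21 to 7.27 CPM in Control libraries, and in Activator replicates 1, 2 and 3 it gave 3.93, 5.32 and 6.4 before induction, 1.83, 3.48 and 3.15 at its end, 1.64, 2.64 and 2.15 after 3 h, 0.812, 2.18 and 1.01 after 6 h, 1.33, 2.87 and 1.85 after 12 h and 2.74, 4.77 and 5.01 after 24 h. The Hoxd9 libraries did not overlap between the lines at any time from the end of induction to 24 h. Its difference was largest after 6 h (-1.8 ± 0.25, edgeR adjusted p = 3.3e-07), and after 24 h it was -0.57 ± 0.23 (edgeR adjusted p = 0.03).

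Hoxc13 carried nearly all counts of its cluster in Control cells and went against its cluster neighbours. It gave 4.18 to 6.98 CPM in Control libraries, and in Activator replicates 1, 2 and 3 it gave 7.42, 8.37 and 8.0 before induction, 2.18, 5.21 and 2.15 at its end, 1.1, 2.32 and 1.75 after 3 h, 1.71, 4.31 and 2.14 after 6 h, 2.51, 4.33 and 2.88 after 12 h and 5.45, 7.26 and 5.84 after 24 h. Hoxc13 started above the Control libraries, dropped below those of the same time at 3, 6 and 12 h and ended above them after 24 h. The difference was -1.44 ± 0.27 after 3 h (edgeR adjusted p = 2.8e-05), and less the difference before induction it was -2.07 ± 0.36 (edgeR adjusted p = 3.7e-05).

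Hoxb9, a gene of the thorax and rib cage, differed between times within the Control line too, as did Hoxb8. Its Control replicates 1, 2 and 3 gave 12.9, 13 and 11.5 CPM before induction, 19.0, 20.6 and 20.7 at its end, 17.8, 16.7 and 17.9 after 3 h, 14.3, 15.0 and 16.4 after 6 h, 14.1, 14.5 and 14.9 after 12 h and 18.1, 18.3 and 22.8 after 24 h. Hoxb9 in Activator replicates 1, 2 and 3 gave 13.2, 14 and 15.4 CPM before induction, 11.2, 12.0 and 17.1 at its end, 11, 10.6 and 18.1 after 3 h, 10.3, 7.56 and 14.9 after 6 h, 7.66, 8.07 and 10.3 after 12 h and 9.31, 9.77 and 13.2 after 24 h. Control cells thus had more Hoxb9 at the end of induction and after 24 h than before, in all 3 libraries, and every Activator library had less than the Control libraries of the same time at the end of induction and after 12 h and 24 h. In the Control line it rose by 0.68 ± 0.14 at the end of induction and by 0.64 ± 0.14 after 24 h (edgeR adjusted p = 0.032 and 0.027). Neither rise of Hoxb9 passed without the replicate term (edgeR adjusted p = 0.35 and 0.19), with scaling to mitochondrially encoded mRNAs (edgeR adjusted p = 0.38 and 0.17) or with replicate 1 or 3 left out of every group, and each was lost in 5 of 6 fits without 1 of the libraries compared. Between the lines the difference was -0.60 ± 0.14 at the end of induction and -0.88 ± 0.15 after 24 h (edgeR adjusted p = 0.00077 and 7.1e-06), under the 2-fold limit at every time. At 24 h less the difference before induction it was called (-1.06 ± 0.21, edgeR adjusted p = 0.00026), where 3.56% of all genes were called lower, and no other member was, a call lost with DESeq2 and when replicate 2 was left out of every group.

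Members of lower abundance also fell. Hoxa2, the selector of the second pharyngeal arch, gave 1.35 to 2.99 CPM in Control libraries and 0.225 to 1.26 in Activator libraries from the end of induction to 12 h. Its difference was -1.75 ± 0.32 after 3 h and -1.08 ± 0.29 after 24 h (edgeR adjusted p = 2.2e-05 and 0.0018). Hoxa6 gave 1.7 to 2.75 CPM in Control libraries and was at -1.35 ± 0.22 after 6 h and -0.87 ± 0.21 after 24 h (edgeR adjusted p = 5.3e-06 and 0.0008). Hoxd4 gave 1.41 to 2.6 CPM in Control libraries and was at -1.94 ± 0.39 after 3 h (edgeR adjusted p = 6.9e-05). Its exons overlap those of Hoxd3 and of the gene model Gm28230, so the counts of Hoxd3 and Hoxd4 are uncertain. Hoxa4, Hoxa9 and Hoxd3 passed the adjusted p at a single time each between 3 h and 6 h, all downward, and Hoxb13, at 0.0 to 0.298 CPM over all libraries, passed downward after 6 h (-3.08 ± 0.87, edgeR adjusted p = 0.0025).

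Hoxa7, Hoxb5, Hoxb6 and Hoxb8, all central genes, passed the adjusted p upward at 1 or more times. Hoxb8, which acts in the spinal cord and in blood cells, gave 0.644 to 1.84 CPM in Control libraries. In Activator replicates 1, 2 and 3 Hoxb8 gave 0.648, 0.886 and 1.3 CPM before induction, 1.13, 2.09 and 1.14 at its end, 1.05, 1.6 and 1.18 after 3 h, 1.17, 1.67 and 1.75 after 6 h, 1.79, 4.13 and 3.16 after 12 h and 3.2, 3.02 and 3.79 after 24 h. At 6, 12 and 24 h every Activator library was above every Control library of the same time. The difference was -0.31 at the end of induction (edgeR adjusted p = 0.25), -0.01 after 3 h (edgeR adjusted p = 0.98), 1.75 ± 0.24 after 12 h and 1.02 ± 0.23 after 24 h (edgeR adjusted p = 2.2e-07 and 0.0003), with a mean count below the limit for a call. Hoxb8 also rose within the Control line, by 1.26 ± 0.25 at the end of induction and 1.16 ± 0.25 after 24 h (edgeR adjusted p = 0.016 and 0.021), where 0.214 and 0.788% of all genes passed in either direction. These rises of Hoxb8 did not pass without the replicate term (edgeR adjusted p = 0.11 and 0.098), with mitochondrial scaling (edgeR adjusted p = 0.22 and 0.16) or with replicate 1 or 3 left out of every group, and were lost in 3 and 6 of 6 fits without 1 of the libraries compared.

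Hoxa7 was above Control at all times in its means. It gave 0.258 to 0.845 CPM in Control libraries and 0.596 to 1.7 in Activator libraries, and the lines were already apart before induction, by 0.94 ± 0.31 (edgeR adjusted p = 0.16). The difference was 1.8 ± 0.32 after 3 h and 1.29 ± 0.29 after 24 h (edgeR adjusted p = 1.3e-05 and 0.00029). No Hoxa7 difference less that before induction passed. The antisense transcript Hoxaas3 covers 20.38% of the Hoxa7 exon bases. Hoxb5 and Hoxb6 lie next to each other and had at most 0.315 and 0.648 CPM in any library. Both were higher after 12 h, by 2.98 ± 0.86 and 2.03 ± 0.75 (edgeR adjusted p = 0.0026 and 0.016), and with scaling to mitochondrially encoded mRNAs that of Hoxb6 no longer passed (1.49, edgeR adjusted p = 0.071).

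The silent part of the Hoxc cluster gained RNA in Activator cells. In Control cells Hoxc4 to Hoxc12 were at or near 0 at every time, with a highest group sum of 4 counts for any of these 8 genes. In Activator cells the 8 genes together gave 0.204 ± 0.0739 CPM before induction (SD, n = 3), 0.504 ± 0.249 at its end, 1.27 ± 0.407 after 3 h, 2.37 ± 1.03 after 6 h, 3.48 ± 1.54 after 12 h and 3.04 ± 2.24 after 24 h. After 12 h their sum was 4.47, 1.71 and 4.26 CPM in Activator replicates 1, 2 and 3, and Hoxc13 alone gave 2.51, 4.33 and 2.88 in the same libraries, so that the sum was above Hoxc13 in replicates 1 and 3 and below it in replicate 2.

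Hoxc4, at the anterior end of the cluster, had the most counts of these genes at the end of induction. Its counts in Activator replicates 1, 2 and 3 were 0, 0 and 1 before induction, 10, 4 and 18 at its end, 21, 16 and 21 after 3 h, 32, 14 and 20 after 6 h, 36, 27 and 21 after 12 h and 28, 3 and 17 after 24 h, against a single count in all 18 Control libraries. Taking 3 counts over a group as the floor, Hoxc4 was at least 9.6-fold higher in Activator than in Control cells at the end of induction and at least 16.9-fold higher after 3 h. Here and below, a value given as at least takes the summed Activator counts as exact. It allows neither for their counting error nor for the spread between replicates. At 12 h, with 1 Control count, the ratio was 94.6 with an exact 95% interval from 16.5 to 3780, which covers counting error only.

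Hoxc8 and Hoxc10 had few or no counts at the end of induction and more from 3 h on. Hoxc8, which acts in motor neurons and the ribs, had 0, 0 and 0 counts before induction, 1, 0 and 4 at its end, 11, 2 and 4 after 3 h, 16, 3 and 16 after 6 h, 32, 7 and 24 after 12 h and 40, 3 and 22 after 24 h in Activator replicates 1, 2 and 3, with 0 in all Control libraries. Hoxc8 was at least 4.96-fold higher after 3 h and at least 23.6-fold higher after 12 h. Hoxc10, a gene of the hindlimb, had 0 counts in the 3 Activator libraries of the end of induction, then 6, 2 and 3 after 3 h, 16, 8 and 6 after 12 h and 30, 0 and 7 after 24 h, and was at least 3.21-fold higher after 3 h and at least 11.3-fold higher after 12 h. Replicate 2 had the fewest counts of Hoxc8 and Hoxc10 after 24 h, as for Hoxc4.

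Hoxc5, Hoxc6 and Hoxc11 also had more counts in Activator cells. At 12 h they had sums of 54, 51 and 42 counts in Activator cells and 0 in Control cells, at least 20.3, 19.1 and 15.8-fold higher. At the end of induction Hoxc5 and Hoxc11 had 1 count each in Activator cells, so no fold is given there, and Hoxc6 had 4, 1 and 5 in replicates 1, 2 and 3, after 2, 1 and 1 before induction. Hoxc9 had counts before induction as well, 5, 5 and 9 in Activator replicates 1, 2 and 3 against 4, 0 and 0 in Control, and rose to 35, 8 and 28 after 24 h. Hoxc12, next to Hoxc13, had at most 13 counts in a library. Hoxc5 and Hoxc10 share 166 exon bases, so their counts are not fully separate. These genes entered the test only through the Activator libraries, and 69.8% of all tested genes with a mean count of at most 10 passed the adjusted p upward after 12 h, so the number of Hoxc genes that passed is not a result about the cluster.

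**Figure D5:**
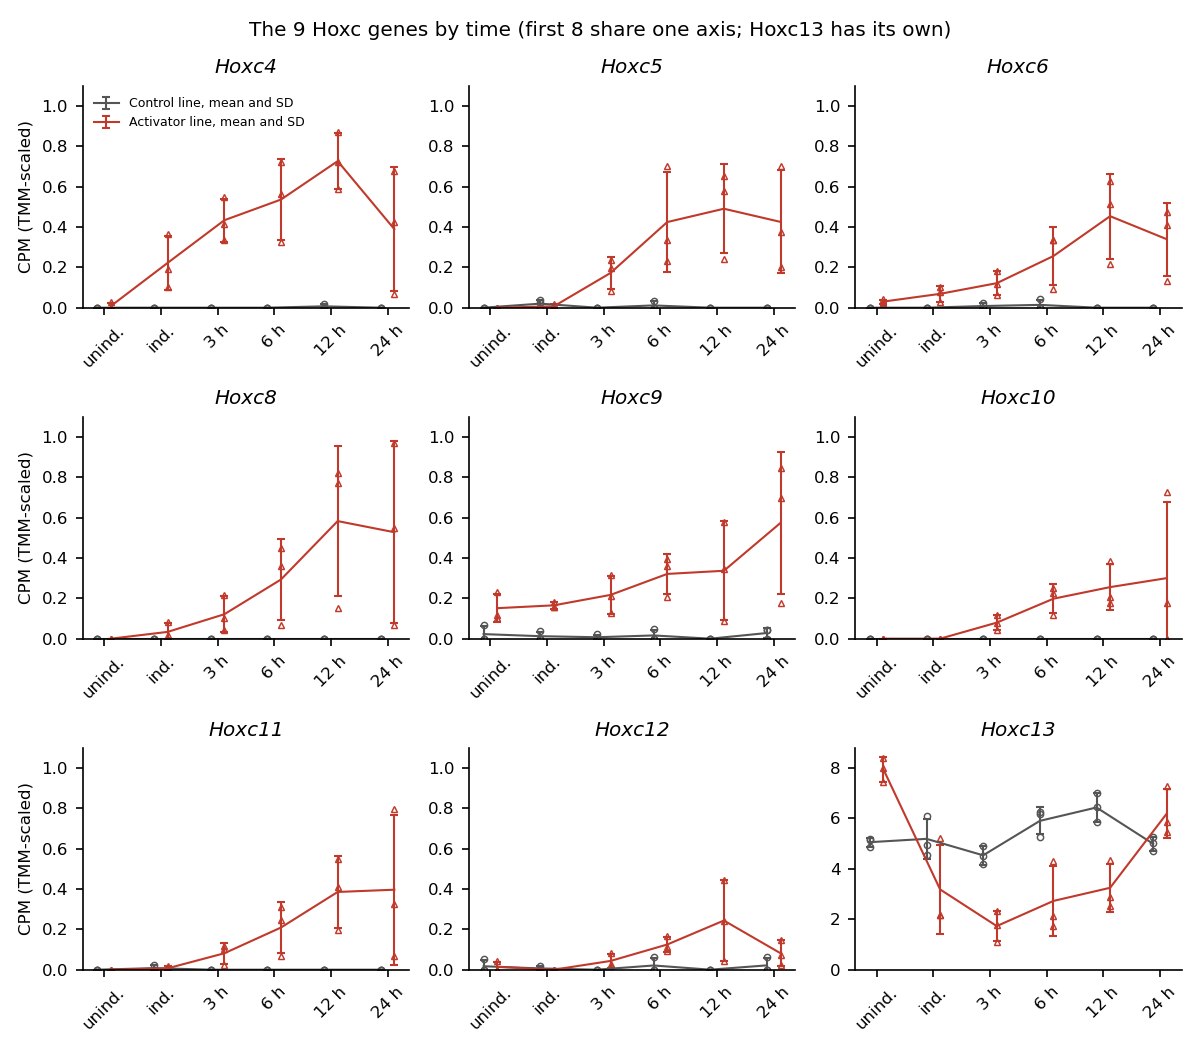
Level (CPM, TMM-scaled, vertical axes from 0) of the 9 Hoxc genes by time point (horizontal axis), in Control (grey circles) and Activator cells (red triangles). Symbols are libraries, lines join group means and bars are SD (n = 3), cut at 0. Hoxc4 to Hoxc12 stay at or near 0 in Control cells and rise in Activator cells to highest group means of 0.244 CPM (Hoxc12) to 0.727 CPM (Hoxc4), and Hoxc13, on an axis of its own, drops and returns.

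Other transcripts in and beside the Hoxc cluster appeared with these genes. Hotair, the noncoding RNA between Hoxc11 and Hoxc12, had 2 counts in 18 Control libraries and 112 in 18 Activator libraries, of which 0 fell at the end of induction and 29 after 6 h. Of 8 tested gene rows within 150 kb of the cluster that are no members, 7 passed upward after 12 h and 1 downward, where 41.1% of all genes passed upward and 34.1% downward. Several of these rows, such as Hotair, had next to no counts in Control cells and entered the test through the Activator libraries, as did the Hoxc genes. The lincRNA Gm28265, 65.4 kb beyond the anterior end, went from 15 to 749 counts and Gm28876 from 11 to 477. Smug1, the coding gene 116.4 kb beyond the same end, fell by 1.40 on the log2 scale after 12 h (edgeR adjusted p = 5.9e-11). Around the other clusters the tested rows passed upward and downward after 12 h in 3 and 1 of 15 cases (Hoxa), 4 and 3 of 10 (Hoxb) and 1 and 3 of 7 (Hoxd), beside the same shares of all genes. These counts carry no test of a difference between clusters.

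The changes were also tested after subtracting what the lines differed in before induction. By this measure 5 members were called lower at the end of induction, 9 after 3 h, 9 after 6 h and 7 after 12 h, where 5.45, 9.33, 10.2 and 10.6% of all genes were called lower. At an adjusted p alone 12, 15, 15, 15 and 3 of the 28 tested members passed from the end of induction to 24 h, all downward but 3 after 12 h, where 32.2, 47.1, 50.1, 51 and 33.1% of all genes passed in either direction. Without a replicate term the first count was 3. It was 1 and 0 when replicates 1 and 3 were left out of every group, and the count after 12 h was then 4 and 3. Without replicate 3 the counts after 3 h and 6 h were 5 each. Within the Activator line 5 members were called lower at the end of induction than before (Hoxa3, Hoxa5, Hoxa10, Hoxb4 and Hoxc13), beside 6.02% of all genes, and 2 of these calls were left without replicate 3. At 24 h none was called against uninduced Activator cells by edgeR or DESeq2, where 7.2% of all genes were called, and 14 had an unadjusted and adjusted p under 0.05 in edgeR, 8 higher and 6 lower, where 34.3 and 28.5% of all genes passed. The tested members include Hoxc genes that entered the test only through the Activator libraries, so the number higher is no result about the members.

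By position, the 4 anterior genes with a mean above 100 had a median log2 difference of -1.45 after 3 h, the 3 central genes -1.29 and the 4 posterior genes -1.36. At 12 h the medians were -0.92, -1.28 and -1.24, and after 24 h -0.22, -0.37 and -0.73. The ranges of the 3 classes overlapped at each of these times. By cluster the medians after 3 h were -1.43 for 4 Hoxa genes, -1.44 for 4 Hoxb genes and -0.89 for 2 Hoxd genes.

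Genes that act with Hox proteins or on Hox clusters moved in Activator cells as well. Of 9 TALE cofactors 7 passed downward and 1 upward over the time course with edgeR, and the 3 called were Meis2 (-1.69 ± 0.22), Pbx2 (-1.45 ± 0.16) and Pbx3 (-1.18 ± 0.14), partners that bind DNA with Hox proteins. Meis2 went from 112.1 ± 12.7 CPM before induction to 19.5 ± 6.74 after 3 h in Activator cells, where Control cells had 104.2 ± 1.95 and 88.4 ± 3.57. At 24 h Meis2 and Pbx2 were still called lower (-1.28 and -1.14), with Meis2 between 25.3 and 87.4 CPM in the 3 Activator libraries. The median of the list was -0.73, beside 0.08 over all genes, of which 37.5% passed downward and 44.5% upward. All genes include those with a mean normalised count of at most 10, of which 74.9% passed upward. Of the 9 cofactors 8 had a mean above 100, and the median of all genes above that limit is not given. Over the time course 5.56% of all genes, and 11.6% of those with a mean normalised count above 100, were called lower and 2.89% of all genes higher, and these shares stand beside the counts of every list that follows.

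Of 10 MLL and trithorax genes 7 passed downward and 1 upward over the time course, with Kmt2b (-1.15 ± 0.14), a histone H3K4 methyltransferase, and Hcfc1 (-1.11 ± 0.13) called. Of 21 Polycomb genes 16 passed downward and 4 upward, and 6 were called, all lower, beside 11.6% of genes with a mean above 100, led by Cbx2 (-1.61 ± 0.22), Cbx7 (-1.34 ± 0.19) and Pcgf2 (-1.24 ± 0.13), subunits of the complex PRC1. Cbx2 had 20.1 ± 1.95 CPM before induction and 3.27 ± 2.17 after 3 h in Activator cells. The medians of the lists were -0.55 and -0.42, and 10 of 10 and 20 of 21 of their genes had a mean normalised count above 100.

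Retinoic acid switches on anterior Hox genes in the embryo. Of 15 tested genes of its pathway 8 passed upward and 7 downward, beside 44.5 and 37.5% of all genes, and the receptors Rarg (-1.18 ± 0.14) and Rxra (-1.10 ± 0.12) were called, both lower. Of the other homeobox lists, Dlx1 (-1.08 ± 0.11) was called among 12 tested ANTP-class genes and Prrx1 (-1.34 ± 0.16), a marker of limb mesenchyme, among 10 limb and mesenchyme genes. Of 8 tested noncoding transcripts of the clusters 2 passed upward and 4 downward over the time course. Of 11 genes flanking the clusters Smug1 was called (-1.06 ± 0.13), with 5 passing upward and 3 downward.

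Markers of other cell types were measured beside these changes, and their part in them was not tested. The 12 fibroblast markers summed to 22400 to 34800 CPM in Control libraries and to 10900 to 34400 in Activator libraries, with the lowest sums after 24 h. Of the 11 tested, 4 passed upward and 6 downward over the time course, and Pdgfrb (-1.42 ± 0.18) and Pdgfra (-1.15 ± 0.21) were called lower and Dcn (1.20 ± 0.16) higher. The 5 endothelial markers summed to 0.0919 to 0.873 CPM in Control and to 0.303 to 35 in Activator libraries, where Pecam1 was called higher (5.59 ± 0.41). The epithelial markers summed to 0.869 to 1.66 CPM in Control and 1.98 to 4.26 in Activator libraries. Before induction these sums were already apart, 0.869 to 1.26 and 2.1 to 3.09 CPM. The skeletal muscle sums were 3.88 to 8.48 and 6.79 to 11.9 CPM, and before induction 4.55 to 5.27 and 6.79 to 7.31. In the same order the blood sums were 3.76 to 5.37 and 3.56 to 8.94 CPM. The neural sums were 15.6 to 31.4 and 12.1 to 36.7, and the pluripotent sums 0.33 to 1.09 and 0.666 to 2.57. Krt5, Adgre1, Cd3e and Hbb-bs were at 0 in all 18 Control libraries, and Hbb-bs also in the 18 Activator libraries.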

How the data were processed

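Total RNA libraries were prepared with a stranded kit and sequenced by the authors in 150 base pairs from both ends. According to the study's methods the reads were trimmed with cutadapt, mapped to GRCm38 with STAR and counted on genes and repeat families with TEtranscripts. The deposited values are whole-number counts, not normalised. The annotation release and the strand setting of the counting are not given in the sources used here. Gene rows (54842) were named from GENCODE M21, and a row with no name, 0.0021 to 0.00452% of counts, was left out. Counts were tested with edgeR 4.0.16 in R 4.3.3 (TMM factors, filterByExpr, robust quasi-likelihood fits) over all 36 libraries and adjusted over 28536 genes. The terms were the 12 groups and the replicate number. Only the model with a common difference between the lines had line, time point and replicate number as terms. These follow the study's design of replicate, time point and condition, which the study fitted with DESeq2. SE is the fold change divided by the root of F. Calls used the limits of the study: adjusted p under 0.05, 2-fold and a mean normalised count of 100. The study gives 3 biological replicates for each line; p-values measure the spread between these samples. The steps were tested on simulated data. The alternatives were DESeq2 1.42.0, other scalings, filters and limits, no replicate term and leaving out libraries. Members named are those called between the lines, then the highest of each cluster per length, and at most 3 called genes of each other list. The members and lists were chosen with earlier results of these data known. Libraries of the Repressor line were not used here. Values of 1 member are not reported here; it stays in the fits, sums and counts.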

Additional observations from a re-analysis of the deposited data

Results flagged for a closer look

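For 20 of the members reported here the difference between the lines changed from its value before induction, by an edgeR test of the change itself with an adjusted p under 0.05 at 1 or more of 5 times. At the single times 32.2 to 51% of all genes passed this test in either direction. The share of all genes that passed at 1 or more of the 5 times is at least the largest of these and is not given. The number 20 is therefore no result about the members. The values are log2 differences of Activator over Control cells less that before induction, at the passing time with the largest change. At 3 h they were -2.17 for Hoxa3, -2.0 for Hoxb4, -2.07 for Hoxc13, -2.19 for Hoxd4, -1.45 for Hoxa2, -1.42 for Hoxb2, -1.34 for Hoxa9 and -1.31 for Hoxd3. At 6 h they were -1.66 for Hoxa5, -1.59 for Hoxd9, -1.52 for Hoxb3, -1.38 for Hoxa6, -1.33 for Hoxa4 and -4.48 for Hoxb13, a gene with few counts. At 12 h they were -1.47 for Hoxa10 and -0.89 for Hoxd8, and above 0 for Hoxb8 (1.42) and Hoxb5 (2.85, a gene with few counts). The value fitted for Hoxc9 after 12 h (4.30) depends on the prior count and is no measure of size: the Control libraries of that time had 0 counts and the gene entered the test through the Activator libraries, so only a bound, at least 14.3-fold higher in Activator cells, can be given there. At 24 h Hoxb9 was at -1.06.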

How the results depend on the processing

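Among single values, direction under the alternatives was checked only where the main fit had passed. Of 3142 such alternative values, of members and of the named list genes, 2733 still passed and 409 no longer did, and none changed direction. Most of these fits share libraries with the main fit, so a change of direction was unlikely from the start. The following are numbers of members called, given in the order of the comparisons. Scaling to the 13 mitochondrially encoded mRNAs moved the median of all genes to -0.33 over the time course (0.08 with TMM), -0.25 at the end of induction, -0.44 after 3 h, -0.58 after 6 h, -0.49 after 12 h and -0.18 after 24 h. With it 8 members were called over the time course, 9 at the end of induction, 2 after 24 h, 9 and 11 at the end of induction and 12 h less the difference before induction, and 9 and 1 within the Activator line at the end of induction and 24 h. All were lower. In the same order 3625, 3073, 2179, 2918, 6352, 4320 and 2077 of all tested genes were called lower with this scaling. With TMM the numbers of all genes were 1587, 1629, 1177, 1556, 3035, 1717 and 1164, so the calls rose among all genes too. Without a limit on the mean count the numbers between the lines were 14 over the time course, 1 before induction, 12 at its end, 20, 19, 20 and 10 at 3, 6, 12 and 24 h. Less the difference before induction they were 14, 14 and 12 at 3, 6 and 12 h, and within lines 1 and 1 (Control) and 9 and 9 (Activator). These numbers count both directions. Those between the lines over the time course and from the end of induction to 24 h include upward passes of Hoxc genes that entered the test through the Activator libraries. The share of all genes without this limit is not given, so the numbers are no result about the members. Without a fold limit the numbers were 11 over the time course, 11 at the end of induction and 5 after 24 h, 9 and 2 at these times less the difference before induction, and within lines 1 and 1 (Control) and 10 and 3 (Activator). The share of all genes is not given for these either. DESeq2, and its size factors in edgeR, gave 5 after 12 h and 0 after 24 h less the difference before induction, where DESeq2 passed 7 at an adjusted p alone. After 12 h DESeq2 called 2259 of all genes lower, against 3113 in the main fit. After 24 h less the difference before induction it called 618 lower, against 1015. Library size without TMM gave 8 at the end of induction less the difference before it, where 1834 of all genes were called lower, against 1556 with TMM. Without a filter on low counts edgeR called 0, and passed 1, after 24 h less the difference before induction. Fits on only the 6 libraries compared called 1 after 24 h, and at an adjusted p alone passed 15 after 6 h and 5 after 24 h, and 4 and 2 in the Control and Activator lines after 24 h. Shares of all genes are not given for these fits, for the fit without a filter or for the passes with DESeq2. Those numbers are therefore no result about the members. At an adjusted p alone Hoxb6 before induction was lost (0 members) with DESeq2 size factors, mitochondrial scaling, no filter on low counts and no replicate block, and mitochondrial scaling or no replicate block left 0 in the Control line at both times. The top level per length, that of Hoxd8, was 15.7 as TPM, and the Hoxb share 39.3% after length scaling.

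The replicate number was a block in the fits because the study's design has it. Same-numbered libraries of the lines deviated together with correlations from -0.00995 to 0.393, which does not show that the numbers pair cultures. Without the replicate block 3 members were called at the end of induction less the difference before it, and 7 passed the adjusted p.

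With libraries left out, the numbers called ranged from 3 to 5 over the time course, 0 to 0 before induction, 1 to 9 at its end, 9 to 9 after 3 h, 7 to 9 after 6 h, 3 to 8 after 12 h and 0 to 1 after 24 h. The 1 after 24 h came without Control replicate 2. At an adjusted p alone they ranged from 23 to 26, 0 to 1, 13 to 19, 19 to 24, 21 to 25, 21 to 26 and 11 to 21. With all libraries 82.1, 1.23, 57.3, 70.9, 74.1, 75.2 and 63.9% of all genes passed in either direction. All but the uninduced counts include upward passes of Hoxc genes that entered the test only through the Activator libraries. Shares of all genes with libraries left out are not given here or below, so the ranges are no result about the members. Less the difference before induction, 0 to 7, 5 to 9, 5 to 9, 3 to 7 and 0 to 1 were called from the end of induction to 24 h, and 1 to 14, 6 to 15, 8 to 15, 7 to 17 and 1 to 7 passed. Within lines 0 to 0 and 0 to 0 (Control) and 2 to 7 and 0 to 0 (Activator) were called and 0 to 2, 0 to 2, 8 to 19 and 8 to 16 passed. The median difference after 3 h of the anterior members less that of the posterior members, -0.08 with all libraries, ranged from -0.28 to -0.08. The cause was not tested for any of these. At this depth a gene at 0 in a group is limited to 3 counts over the group.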
